A study of Rattus norvegicus with 8 samples.

Results

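The mitosis genes are a set of 34 genes, chosen by name, whose products carry a cell from entry into mitosis through chromosome condensation, spindle assembly and anaphase to cytokinesis. They were read on Affymetrix Rat Gene 1.1 ST arrays from whole kidneys of 4-week-old rats. A gene was taken from probe sets annotated to exactly 1 gene symbol, and where it had several, from the brightest. By that rule 32 of the 34 had a value, among 17245 genes with a value in all. Birc5 and Ncaph had no such probe set and are not described by values. Genes in the lowest 20% of mean log2 intensity were not tested, which removed Ttk and left 31 mitosis genes among 13796 genes tested.

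All animals were of HSRA, a rat model from a heterogeneous stock in which a kidney can fail to form on 1 side (unilateral renal agenesis). HSRA-S animals had a congenital solitary kidney (n = 4), and HSRA-C animals, the control, had both kidneys (n = 4). Both groups were of the same model and age, and each sample, described as an independent biological replicate, had its own array. The sources used here give neither sex nor litter. The expression of a whole kidney mixes all its cell types, so that more dividing cells and more mitotic RNA per cell cannot be told apart.

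Mitosis genes are transcribed late in the cell cycle and are silent in resting cells, and the kidney of a young rat still grows partly by division of tubular cells. Their promoters share short elements. The cell cycle homology region, or CHR, is bound by the MuvB complex, which represses these genes at rest as part of DREAM and activates them with B-Myb and FoxM1 before mitosis, while CCAAT boxes bind the factor NF-Y. Cyclin B with the kinase Cdk1 starts mitosis, the spindle checkpoint holds it until every chromosome is attached, and the anaphase-promoting complex ends it by destroying cyclin B.

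The promoter elements are shown first, because they are what most of these genes have in common beyond their function. RefSeq promoters of assembly GRCr8, from 250 bases before to 50 bases after the start, were found for 29 of the 34 genes, of which 26 were tested on the arrays. A CHR-type match (TTTGAA or TTCGAA, either strand) was present in 19 of the 29, or 65.5%, against 19.7% of all 33469 promoters of the same length. CCAAT on either strand was present in 23, or 79.3%, against 37.5%, and at least 2 copies in 16, or 55.2%, against 11.2%. Both kinds of match stood together in 18 of 29 promoters, or 62.1%, against 7.95% of all. An E2F-type match was searched on either strand as TTGGCGC or as TTCGCGC or as TTCCCGC or as TTGGCGG. It was present in 9, or 31%, against 9.51%. Matches of different kinds overlapped each other in 4 places in these 29 promoters. A match is a description of the letters and not a measured binding site.

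A set of 4 promoters are printed below as examples with both elements, those of the genes of smallest p among the ones that hold both. Capitals mark CHR-type matches (TTTGAA or TTCGAA, or TTCAAA on the opposite strand) and CCAAT or its reverse complement ATTGG. Top2a lies at chr10:84473044-84473343 on the minus strand, Mki67 at chr1:199952544-199952843 on the minus strand, Smc4 at chr2:155550012-155550311 on the plus strand and Cdca8 at chr5:142483150-142483449 on the minus strand. Each is written 5′ to 3′ in the direction of its gene.
Top2a: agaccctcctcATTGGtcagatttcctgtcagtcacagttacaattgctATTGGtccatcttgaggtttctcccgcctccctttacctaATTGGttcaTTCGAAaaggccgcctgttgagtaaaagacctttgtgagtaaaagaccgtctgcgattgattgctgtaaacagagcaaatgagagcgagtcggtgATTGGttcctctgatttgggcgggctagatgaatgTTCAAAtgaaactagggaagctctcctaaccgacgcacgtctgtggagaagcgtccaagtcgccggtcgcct
Mki67: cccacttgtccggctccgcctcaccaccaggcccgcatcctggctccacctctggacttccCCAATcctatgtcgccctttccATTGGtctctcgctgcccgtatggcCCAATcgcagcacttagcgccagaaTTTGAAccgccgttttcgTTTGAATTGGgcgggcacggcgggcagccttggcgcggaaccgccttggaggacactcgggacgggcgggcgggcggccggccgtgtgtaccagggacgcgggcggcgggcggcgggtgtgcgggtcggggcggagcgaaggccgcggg
Smc4: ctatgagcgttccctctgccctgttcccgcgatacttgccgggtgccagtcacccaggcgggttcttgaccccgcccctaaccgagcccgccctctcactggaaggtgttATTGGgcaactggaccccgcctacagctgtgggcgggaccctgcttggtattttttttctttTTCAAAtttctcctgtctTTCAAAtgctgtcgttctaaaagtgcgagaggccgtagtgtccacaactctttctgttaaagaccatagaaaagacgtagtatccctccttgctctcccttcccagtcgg
Cdca8: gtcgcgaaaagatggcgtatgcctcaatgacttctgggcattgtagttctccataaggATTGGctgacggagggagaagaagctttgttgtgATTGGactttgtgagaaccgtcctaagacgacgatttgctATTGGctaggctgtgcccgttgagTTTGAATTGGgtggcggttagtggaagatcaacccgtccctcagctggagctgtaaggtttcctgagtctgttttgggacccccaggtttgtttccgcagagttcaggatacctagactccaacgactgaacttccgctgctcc
The Top2a window holds 4 copies of ATTGG, and its TTCAAA begins 22 bases before the start. In Mki67 and in Cdca8 a TTTGAA runs into an ATTGG, with shared letters. The Smc4 window holds a pair of TTCAAA copies, which begin 78 and 60 bases before the start, and a single ATTGG. No CHR-type match was found in the windows of Kif11 and Ccnb1, the mitosis genes of smallest p, while the Ccnb1 window has 2 CCAAT copies and the Kif11 window 1.

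**Figure D1:**
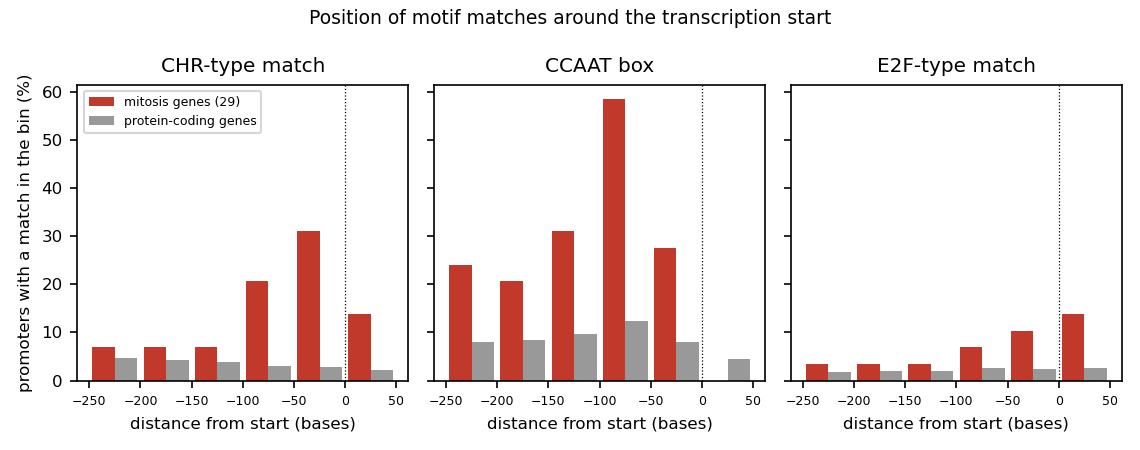
Share of promoters, in percent, with a match that begins in each bin of 50 bases around the transcription start, for 29 mitosis genes (red) and all promoters of protein-coding genes (grey). CHR-type matches of the mitosis genes are most frequent in the 50 bases before the start (31% against 2.73%), and CCAAT matches in the 50 bases before that (58.6% against 12.4%).

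In the comparison between the groups, mitosis genes were higher in the solitary kidney on average, but no gene passed the test and the arrays of the groups overlapped for nearly every gene. Of 31 tested, 30 had a higher mean in HSRA-S, against 55.5% of all genes tested. Their median log2 difference was 0.39, or 1.31-fold, against 0.015 for all genes. After Benjamini-Hochberg adjustment over all genes, 0 mitosis genes passed the limma test at 0.05, as did 0% of all genes, and the adjusted p of the mitosis genes lay between 0.331 and 0.953. Before adjustment, 16 of the 31 had a p under 0.05 and were higher, and 0 were lower, where 12.1% of all genes had such a p, 7.36% higher and 4.69% lower. Kif11 was the single mitosis gene whose groups did not overlap, or 3.23%, against 6.29% of all genes in either direction and 4.12% with the solitary kidneys higher.

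**Figure D2:**
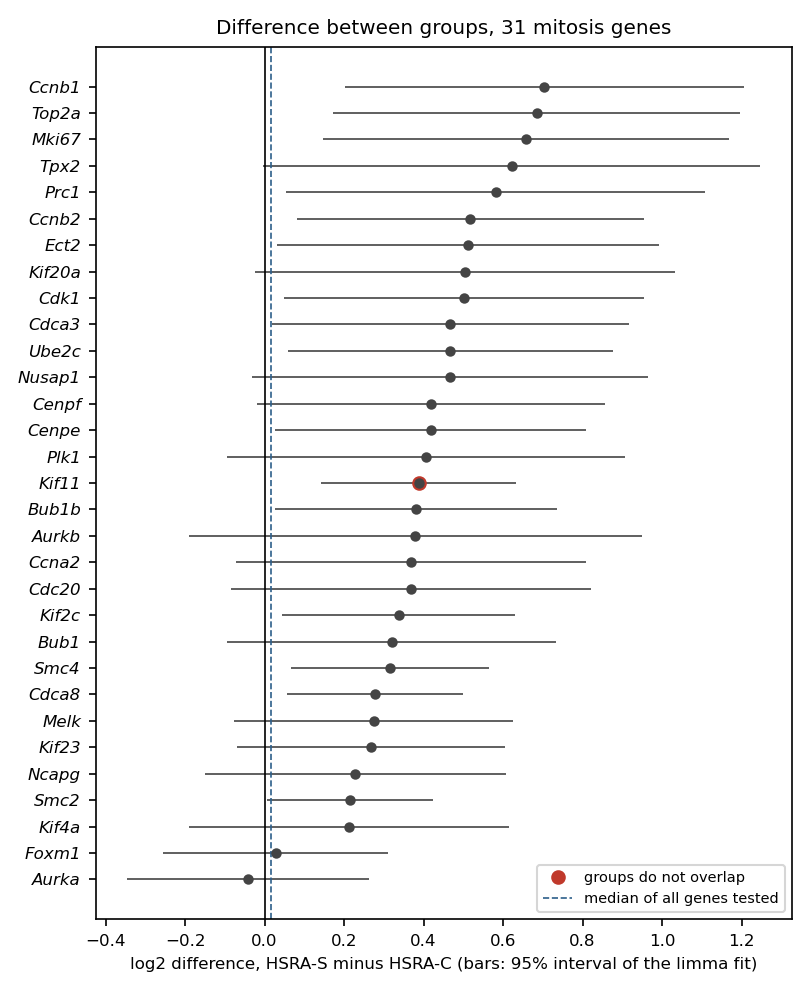
Log2 difference between HSRA-S and HSRA-C for each of the 31 tested mitosis genes, with the 95% interval of the limma fit; the dashed line is the median of all genes tested, at 0.015. Differences run from -0.041 for Aurka to 0.70 for Ccnb1, and Kif11, in red, is the gene whose groups do not overlap.

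The unadjusted count depended on every array. Leaving out HSRA-C replicate 2 raised it from 16 to 29 (against 8.58% of all genes higher), and leaving out HSRA-S replicate 4 raised it to 26 (against 8.29%). In both of these cases 14 genes had groups that did not overlap (against 12.6% and 11.9% of all genes). The count was 6, 7 and 6 (against 4.91%, 6.15% and 7.22%) when HSRA-S replicate 1, 2 or 3 was left out. It was 5, 7 and 7 (against 7.78%, 4.8% and 4.5%) when HSRA-C replicate 1, 3 or 4 was left out. With the replicate number as a block it was 24 (against 7.03%). Adjusted over all genes, the count was 0 in each of these fits.

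These genes varied widely within the groups. The median SD over the 31 genes was 0.34 on the log2 scale in HSRA-S and 0.34 in HSRA-C, where the medians over all genes were 0.11 and 0.11. Each of the 31 was above the median SD of all genes in HSRA-C, and 30 were in HSRA-S. The SDs ran from 0.074 (Cdca8) to 0.58 (Tpx2) in HSRA-S and from 0.14 (Smc2) to 0.51 (Aurkb) in HSRA-C. The median SE of a difference was 0.20, against 0.082 over all genes.

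The same arrays were high or low in most genes. HSRA-C replicate 2 was the highest control in 30 of 31 genes, against 28.7% of all genes, and the exception was Aurka. HSRA-S replicate 4 was the lowest solitary kidney in 28 of 31, against 35.1%, with Kif11, Smc2 and Kif4a as the exceptions. HSRA-S replicates 1, 2 and 3 together with HSRA-C replicate 2 were the 4 highest arrays in 26 of 31 genes, against 5.43%. That control exceeded the mean of the other controls by 0.62 in the median gene, from 0.091 in Aurka to 0.95 in Aurkb. HSRA-S replicate 4 stood at -0.62 from the mean of the other solitary kidneys in the median gene, from -1.04 in Tpx2 to 0.12 in Kif11. These arrays were singled out after the values had been seen.

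For each gene the mean over the 8 arrays was subtracted, and the median of these centred values over the 31 genes was taken on each array. It was 0.43, 0.35, 0.26 and -0.24 in HSRA-S replicates 1 to 4, and -0.41, 0.27, -0.27 and -0.37 in HSRA-C replicates 1 to 4. HSRA-S replicate 4 thus lay on the side of the 3 low controls, and HSRA-C replicate 2 on that of the 3 high solitary kidneys. Of the 31 genes, 31, 29, 29 and 2 were above their own mean in HSRA-S replicates 1 to 4, and 0, 29, 1 and 2 in HSRA-C replicates 1 to 4. Over all genes tested, the same median lay between -0.016 and 0.047 on every array.

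**Figure D3:**
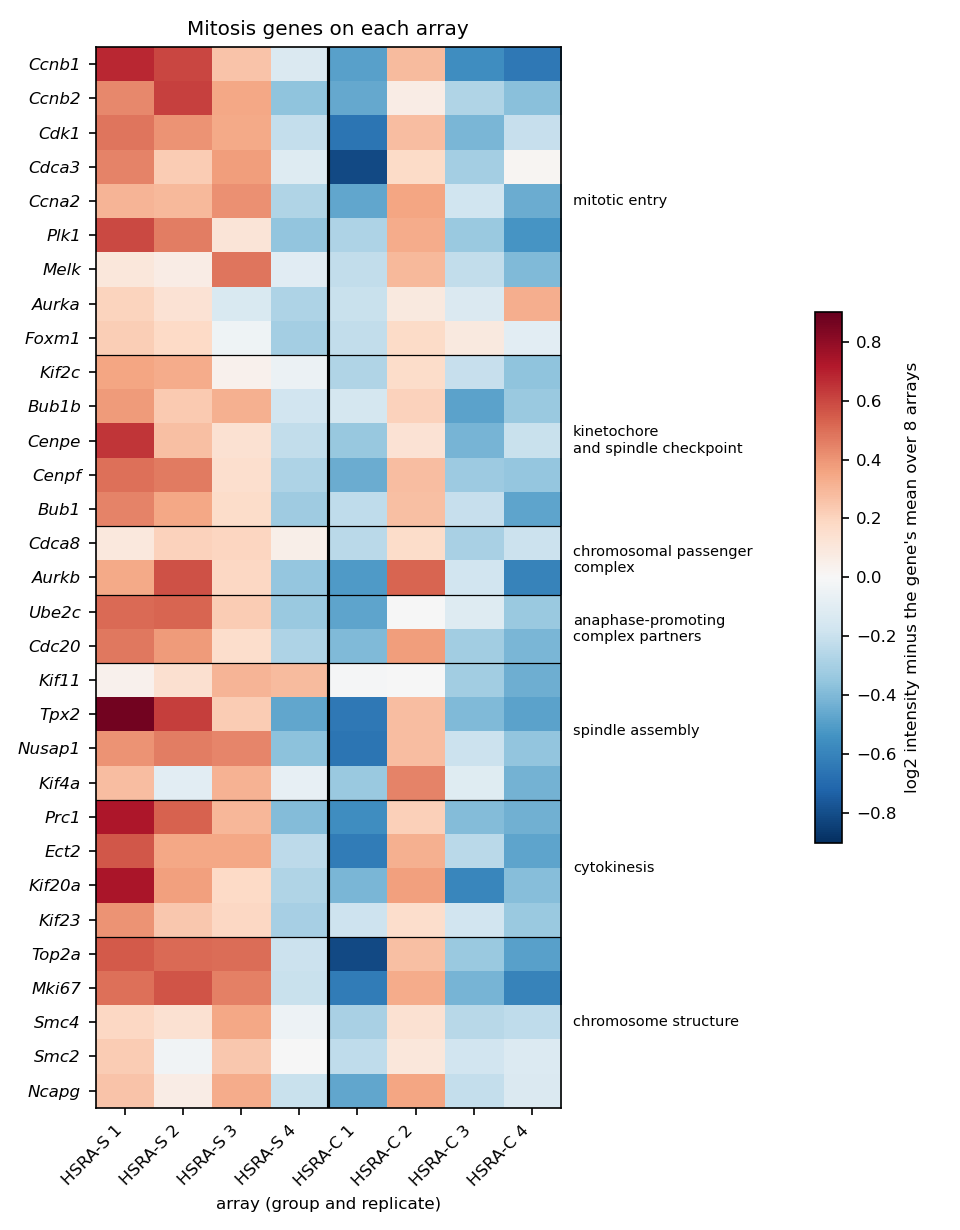
Log2 intensity of each of the 31 tested mitosis genes on each of the 8 arrays, minus the gene's mean over all arrays (red above, blue below), in rows grouped by role. HSRA-S replicates 1 to 3 and HSRA-C replicate 2 are red in most rows, and HSRA-S replicate 4 and HSRA-C replicates 1, 3 and 4 are blue in most.

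Genes of mitotic entry were tested for all 9 members, of which 8 were higher in HSRA-S (against 55.5% of all genes) and 4 were higher at an unadjusted p under 0.05 (against 7.36%). Ccnb1, the cyclin whose binding switches Cdk1 on, was at log2 6.04, 5.97, 5.62 and 5.23 in HSRA-S replicates 1 to 4 and at 4.87, 5.65, 4.81 and 4.72 in HSRA-C replicates 1 to 4. A single control, replicate 2, reached into the solitary range, and the other 3 controls lay below every solitary kidney. The log2 means were 5.72 ± 0.37 and 5.01 ± 0.43 (SD, n = 4 each), a difference of 0.70 with an SE of 0.23, or 1.63-fold, the largest in the set (limma adjusted p = 0.338).

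Cdk1, the kinase that drives mitotic entry, was at log2 5.66, 5.58, 5.52 and 4.96 in the solitary kidneys and at 4.52, 5.45, 4.77 and 4.97 in the controls. Here the lowest solitary kidney was level with control replicate 4 and under control replicate 2. Its difference was 0.50 (SE 0.20; 1.42-fold; limma adjusted p = 0.385). Ccnb2, a second B-type cyclin, differed by 0.52 (1.43-fold), and the other probe set of that gene, the only mitosis gene with more than 1, differed by 0.54 with means of 6.39 ± 0.42 and 5.86 ± 0.22 (SD, n = 4 each). Cdca3, a trigger of mitotic entry that helps remove the Cdk1 inhibitor Wee1, differed by 0.47, and Ccna2, the cyclin of S phase and early mitosis, by 0.37. Plk1, the polo kinase of spindle poles and kinetochores, differed by 0.41, and the kinase Melk by 0.27.

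Foxm1 and Aurka had the smallest differences in the set. Foxm1, the forkhead factor that activates late cell cycle genes, was at log2 6.47, 6.44, 6.22 and 5.95 in HSRA-S and at 6.03, 6.43, 6.34 and 6.16 in HSRA-C. Solitary replicate 4 was the lowest of all 8 arrays, and the groups overlapped over most of their range. The difference was 0.028, with a 95% interval from -0.26 to 0.31. Aurka, the kinase of centrosome maturation and the spindle pole, was at 4.88, 4.81, 4.54 and 4.40 in HSRA-S and at 4.48, 4.77, 4.55 and 5.004 in HSRA-C, with a control, replicate 4, as the highest array. The Aurka difference was -0.041, with an interval from -0.35 to 0.26. It was 0.035 without HSRA-C replicates 3 and 4. Both intervals reach differences as large as those of the smaller mitosis genes.

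At the kinetochore and in the spindle checkpoint, all 5 tested genes were higher in HSRA-S (against 55.5% of all genes), 3 of them at an unadjusted p under 0.05 (against 7.36%). Kif2c, the kinesin that takes apart microtubules at wrongly attached centromeres, was at log2 4.85, 4.83, 4.53 and 4.44 in the solitary kidneys and at 4.22, 4.66, 4.28 and 4.13 in the controls. Control replicate 2 again lay within the solitary range. The Kif2c difference was 0.34 (SE 0.13; limma adjusted p = 0.373). Bub1b, a checkpoint protein that restrains the anaphase-promoting complex, differed by 0.38, and Bub1, the kinase that recruits it, by 0.32. Cenpe, a motor that moves chromosomes to the spindle equator, and Cenpf, a kinetochore protein of late G2, both differed by 0.42.

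Ttk, the Mps1 kinase at the head of the checkpoint, was below the filter on dim genes, which lay at a log2 mean of 3.63, and had no test. It was at log2 3.69, 3.89, 3.66 and 3.16 in HSRA-S and at 3.36, 3.93, 3.57 and 3.40 in HSRA-C. Its order of arrays had the same ends, with control replicate 2 the highest control and solitary replicate 4 the lowest of all.

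Of the chromosomal passenger complex, which corrects attachments and later marks the division plane, Cdca8 and Aurkb had values. Cdca8, the borealin subunit, was at log2 4.63, 4.74, 4.73 and 4.59 in the solitary kidneys and at 4.30, 4.70, 4.25 and 4.34 in the controls. The solitary kidneys lay close together, and again only control replicate 2 reached them. The Cdca8 difference was 0.28 (SE 0.099; limma adjusted p = 0.358). Aurkb, the kinase of the complex, differed by 0.38 with an SE of 0.26, and its SD of 0.51 was the largest among the controls.

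Among partners of the anaphase-promoting complex, Ube2c, its ubiquitin-conjugating enzyme, was at log2 6.36, 6.37, 6.08 and 5.51 in HSRA-S and at 5.37, 5.84, 5.73 and 5.51 in HSRA-C. Solitary replicate 4 was as low as control replicate 4, and the other 3 solitary kidneys were above every control. The difference was 0.47 (SE 0.18; limma adjusted p = 0.377). Cdc20, its activator at anaphase, differed by 0.37.

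Spindle assembly genes held the one without overlap. Kif11, the kinesin that pushes spindle poles apart, was at log2 6.11, 6.22, 6.38 and 6.36 in the solitary kidneys and at 6.06, 6.07, 5.76 and 5.63 in the controls. Every solitary kidney was above every control, by a gap smaller than the range within either group, and solitary replicate 4 was among the high arrays here. The log2 means were 6.27 ± 0.13 and 5.88 ± 0.22 (SD, n = 4 each), a difference of 0.39 with an SE of 0.11 (limma adjusted p = 0.331). With each array centred on its median the Kif11 groups overlapped, and 0 mitosis genes were then without overlap. Tpx2, which activates Aurora A and seeds microtubules, had the widest spread, from 5.95 to 7.28 in HSRA-S, and differed by 0.62 (SE 0.28). Nusap1, a microtubule bundling protein, differed by 0.47, and the chromosome-bound kinesin Kif4a by 0.21.

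All 4 cytokinesis genes were higher in HSRA-S (against 55.5% of all genes). Prc1, which bundles the microtubules of the central spindle, was at log2 6.63, 6.43, 6.20 and 5.51 in the solitary kidneys and at 5.35, 6.12, 5.52 and 5.47 in the controls. Solitary replicate 4 lay among the 3 low controls. The Prc1 difference was 0.58 (SE 0.24; limma adjusted p = 0.387). Ect2, the exchange factor that activates RhoA at the cleavage furrow, differed by 0.51, Kif20a, a kinesin of the central spindle, by 0.50, and Kif23, a subunit of centralspindlin, by 0.27.

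Chromosome structure genes included the proliferation marker Mki67, whose protein coats mitotic chromosomes. It was at log2 8.07, 8.14, 8.03 and 7.37 in HSRA-S and at 6.94, 7.91, 7.15 and 6.97 in HSRA-C. The values formed a high set of 3 solitary kidneys and 1 control, and a low set of 3 controls, with solitary replicate 4 between them. Its means were 7.90 ± 0.36 and 7.24 ± 0.45 (SD, n = 4 each), a difference of 0.66 (SE 0.23; 1.58-fold; limma adjusted p = 0.358). Top2a, the topoisomerase that untangles sister chromatids, was at 7.36, 7.32, 7.31 and 6.62 in HSRA-S and at 5.999, 7.08, 6.48 and 6.32 in HSRA-C. The groups again overlapped through control replicate 2 and solitary replicate 4. The Top2a difference was 0.68 (SE 0.23; 1.61-fold; limma adjusted p = 0.346). The condensin subunits had smaller differences, of 0.32 for Smc4, 0.21 for Smc2 and 0.23 for Ncapg, where the core subunits Smc4 and Smc2 had SEs of 0.11 and 0.094.

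**Figure D4:**
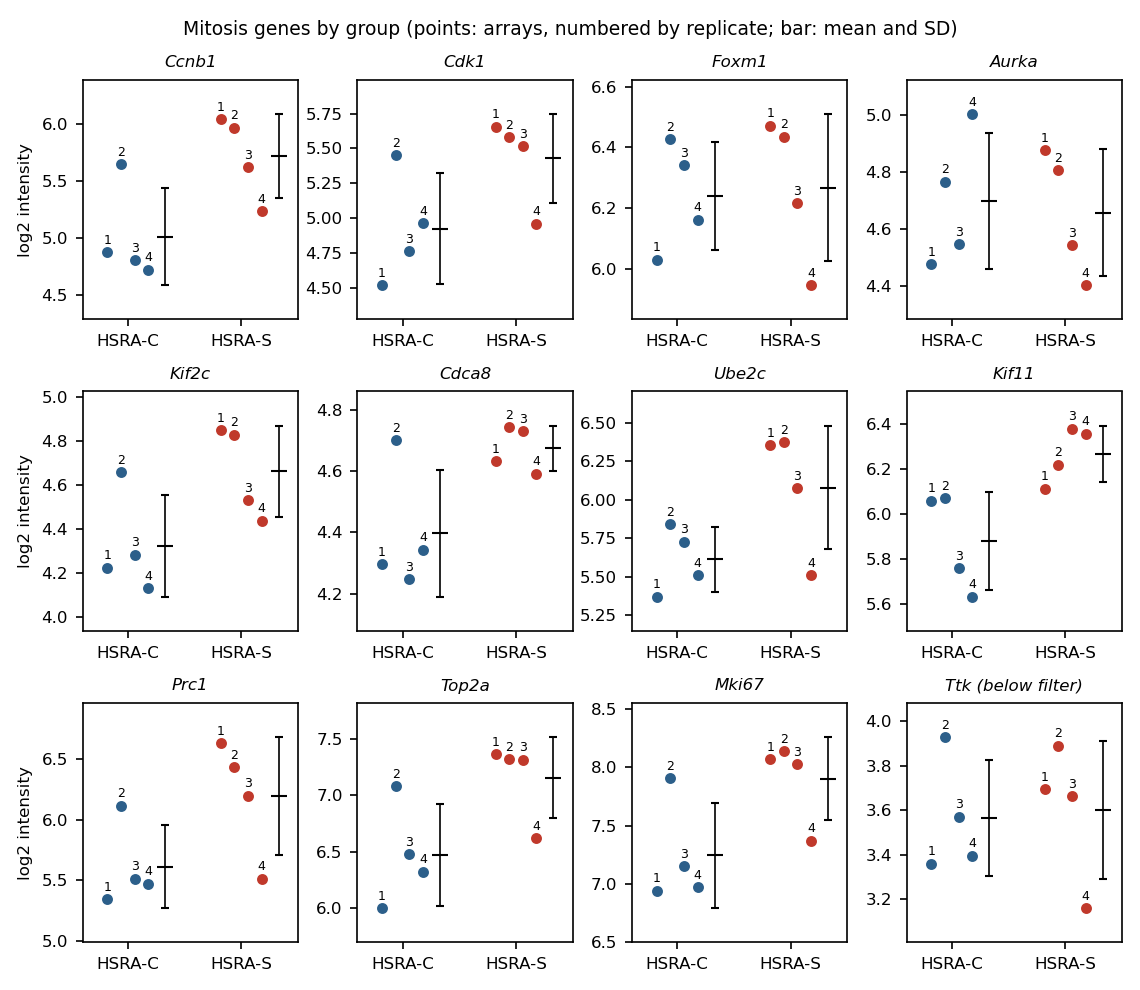
Log2 intensity of 12 mitosis genes by group, with a point for each array (numbered by replicate) and the mean with its SD; each panel has its own scale. Control replicate 2 lies within or near the solitary range in most panels, and Foxm1, Aurka and Ttk have group means that lie close together.

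Other genes of mitosis, 59 in a separate list, had the same direction with smaller differences. Of 51 tested, 49 were higher in HSRA-S (against 55.5% of all genes), with a median log2 difference of 0.23, and 0 passed after adjustment. Before it, 11 were higher at a p under 0.05 (against 7.36% of all genes) and 0 lower (against 4.69%). The genes of smallest p were Kif18a, a kinesin that dampens chromosome movement (difference 0.41, SE 0.13), the centromere protein Cenpi (0.36, SE 0.12) and Depdc1 (0.46, SE 0.15). In 1 of the 51 the groups did not overlap, a smaller share than the 6.29% of all genes. HSRA-S replicates 1, 2 and 3 and HSRA-C replicate 2 were the 4 highest arrays in 33 of the 51 (against 5.43% of all genes).

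Genes of DNA replication and the G1/S transition, which act before mitosis, formed a further list. Of 32 tested, 24 were higher in HSRA-S (against 55.5% of all genes), with a median difference of 0.055. After adjustment 0 passed. Before it, 2 were higher at a p under 0.05 (against 7.36% of all genes) and 0 lower (against 4.69%). The same 4 arrays were the highest in 3 of the 32 (against 5.43% of all genes). HSRA-C replicate 2 was the highest control in 21 of 32 (against 28.7% of all genes). HSRA-S replicate 4 was the lowest solitary kidney in 8, or 25%, against 35.1%. The list's centred median was -0.051, 0.023, 0.14 and 0.0074 in HSRA-S replicates 1 to 4 and -0.12, 0.11, 0.0027 and -0.16 in HSRA-C replicates 1 to 4. Its genes of smallest p were Dbf4, the activator of the replication kinase Cdc7 (0.45, SE 0.13), Rrm2, a ribonucleotide reductase subunit (0.65, SE 0.20), and Dtl, which directs destruction of the licensing factor Cdt1 (0.28, SE 0.13). Whether the replication list and the mitosis genes differ in their response was not tested.

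Inhibitors of the cell cycle and genes of quiescence had a median difference of 0.033, with 10 of 17 tested genes higher (against 55.5% of all genes). Before adjustment, 1 was higher at a p under 0.05 (against 7.36% of all genes) and 2 were lower (against 4.69%). Btg1, an antiproliferative factor, was at -0.21 (SE 0.079), Ccng1, a p53 target, at 0.21 (SE 0.082) and the transcription factor Foxo1 at -0.14 (SE 0.059). Foxo1 was the 1 gene of this list whose groups did not overlap (against 6.29% of all genes). A list of regulators held subunits of MuvB and NF-Y, B-Myb, and the E2F dimerisation partners Tfdp1 and Tfdp2, and had a median difference of 0.028, with 6 of 10 higher. Those of smallest p were the MuvB subunits Lin9 (0.15, SE 0.079), Lin54 (0.13, SE 0.082) and Lin37 (0.086, SE 0.073). In both lists 0 genes passed at an adjusted p under 0.05.

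**Figure D5:**
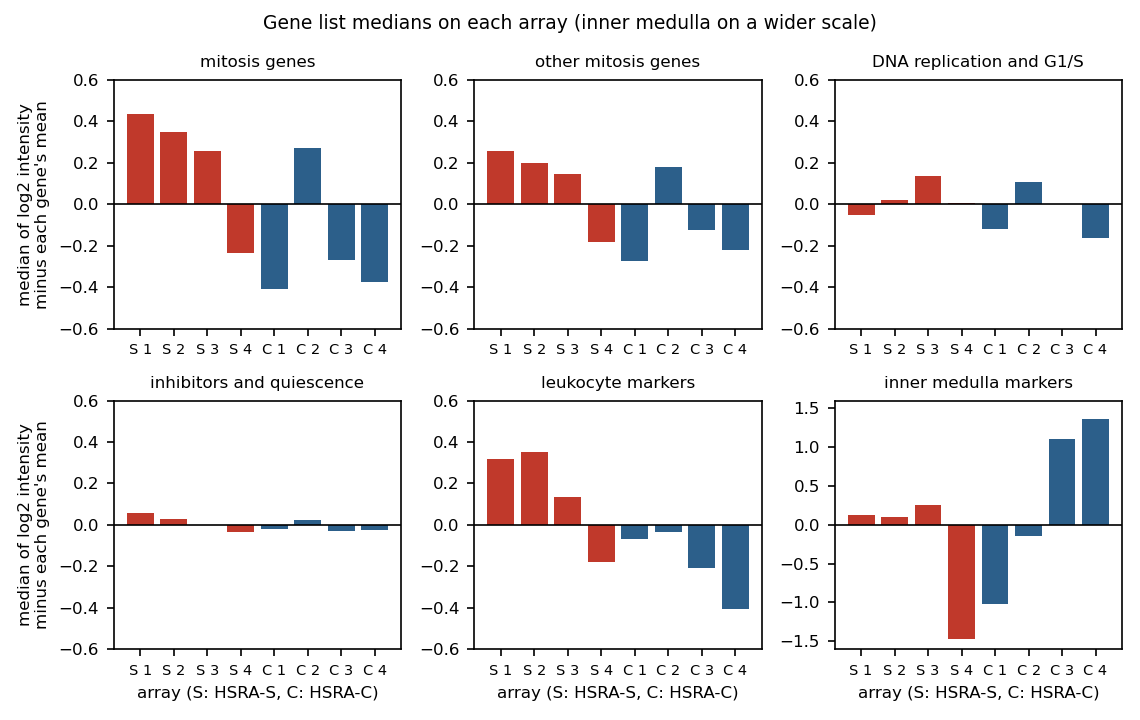
Median over each gene list of the log2 intensity minus each gene's mean, on each array (red HSRA-S, blue HSRA-C); the panel of inner medulla markers has a wider scale. In both the mitosis genes and the separate list of other mitosis genes, HSRA-S replicates 1 to 3 and HSRA-C replicate 2 are above 0 and the other 4 arrays below, with HSRA-C replicate 2 at 0.27 and 0.18 and HSRA-S replicate 4 at -0.24 and -0.18.

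Outside these lists, the genes most like the mitosis genes over the 8 arrays were found by the root mean square distance between a gene's centred log2 profile and the median profile of the 31 genes. The distance was 0.15 for the median mitosis gene and 0.34 for the median gene tested. The 10 nearest were Fam83d, Ska3, Plk4, Plekha1, Cd4, Knstrn, Ctnna3, Arhgef39, Kpna2 and Psmb9, at distances from 0.064 to 0.12. Fam83d and Knstrn are spindle proteins, Ska3 is a kinetochore subunit and Plk4 the kinase of centriole duplication. Cd4 is a leukocyte marker and Psmb9 a subunit of the immunoproteasome. Fam83d was at log2 5.43, 5.18, 5.15 and 4.57 in HSRA-S and at 4.52, 5.09, 4.68 and 4.49 in HSRA-C. Its 4 highest arrays were HSRA-S replicates 1 to 3 and HSRA-C replicate 2, a likeness for which it was chosen.

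Markers of kidney regions differed between the arrays, and whether tissue makeup itself differed was not tested. The kidney markers Umod, Slc34a1 and Aqp2 were bright in both groups (log2 11.6, 11.9 and 9.89 in HSRA-S and 11.6, 11.9 and 10.3 in HSRA-C). Inner medulla markers, of which 4 of 5 were tested, had a centred median of 1.11 and 1.37 in HSRA-C replicates 3 and 4, of -1.01 in HSRA-C replicate 1 and of -1.47 in HSRA-S replicate 4. Their summed intensity ran from 421 to 1714 in HSRA-S and from 595 to 3516 in HSRA-C. The brightest of the 4, Akr1b1, weighed most in this sum (log2 means 9.40 in HSRA-S and 9.89 in HSRA-C). Slc5a3 had centred values of 0.034 and 0.22 in HSRA-C replicates 3 and 4, below those of Slc14a2, Aqp4 and Akr1b1. The mitosis genes were low on HSRA-C replicates 1, 3 and 4 and on HSRA-S replicate 4. These arrays were singled out after the values had been seen. The part of tissue makeup in the mitosis values was not tested, and the 2 fits that follow cannot separate it from group. Markers in the covariate themselves leaned by group, though 0 passed after adjustment. Of proximal tubule markers, 14 of 15 were higher in HSRA-S (against 55.5% of all genes). Of the 15, 7 were higher at an unadjusted p under 0.05 (against 7.36% of all genes). In 5 of them the groups did not overlap (against 6.29%). All 7 markers of collecting duct principal cells and all 4 of inner medulla were lower, where 55.5% of all genes were higher. At an unadjusted p under 0.05, 1 of these collecting duct markers and 0 of the inner medulla markers were lower (against 4.69% of all genes). The other fit leaves 2 controls. With the proximal to medullary marker difference as a covariate, the median difference of the mitosis genes was 0.48, and 15 of 31 were higher at an unadjusted p under 0.05 (against 5.67% of all genes). Without HSRA-C replicates 3 and 4, the median difference was 0.23, with all 31 higher, 0 at an unadjusted p under 0.05 (against 2.68% of all genes) and 1 without overlap (against 13.9%).

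Leukocyte markers were higher in HSRA-S in all 10 tested of 13 (against 55.5% of all genes), with a median difference of 0.30 and a summed intensity from 446 to 631 in HSRA-S and from 383 to 508 in HSRA-C. Their centred median was 0.32, 0.35, 0.13 and -0.18 in HSRA-S replicates 1 to 4 and -0.069, -0.034, -0.21 and -0.41 in HSRA-C replicates 1 to 4. Before adjustment, 4 of the 10 leukocyte markers were higher at a p under 0.05 (against 7.36% of all genes). In 1 of them the groups did not overlap (against 6.29%). Among the solitary kidneys 8 of the 10 were lowest in replicate 4 (against 35.1% of all genes), as most mitosis genes were. Cd3e and Cd79b, with differences of 0.043 and 0.091, were instead highest there. In HSRA-C replicate 2 the leukocyte median was -0.034 and that of the mitosis genes 0.27, each the highest among the controls. HSRA-S replicates 1 to 3 and HSRA-C replicate 2 were the 4 highest arrays in 4 of 10 leukocyte genes (against 5.43% of all genes). The part of leukocytes in the mitosis values was not tested. Erythroid markers had a median difference of 0.14 and were highest in HSRA-C replicate 1, where the mitosis genes were lowest. Proximal tubule markers were at 0.18, thick limb and distal tubule at -0.061, collecting duct principal cells at -0.13, inner medulla at -0.53 and intercalated cells at -0.13. Podocytes were at -0.099, endothelium at -0.14, stroma at -0.18 and nephron progenitors at -0.053. Markers of injured tubule, adrenal gland and fat were at -0.026, -0.015 and 0.044. At an unadjusted p under 0.05, 3 of 7 intercalated cell, 3 of 6 stroma and 2 of 6 endothelium markers were lower (against 4.69% of all genes). Of thick limb and distal tubule markers, 2 of 8 were higher at such a p (against 7.36%). Apart from proximal tubule and leukocyte markers, each remaining list had at most 1 such gene.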

How the data were processed

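Total RNA from whole kidneys was hybridised as biotin-labelled cRNA, per the labels' protocols. The deposited values are intensities on a linear scale, summarised with RMA per the submitters' processing notes; the sources used here name neither its software nor a genome build. RMA equalises the arrays and compresses dim values, which can shrink the differences of dim genes. The log2 of each deposited intensity was taken. Array medians were 30.8 to 32.3, the arrays correlated at 0.987 to 0.995, and their number limits the precision. Of 29214 probe sets, 18644 had 1 gene symbol in the platform annotation, 962 several and 9608 none.

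HSRA-S was compared with HSRA-C with limma 3.58.1 in R 4.3.3 (lmFit and eBayes, group as the only term) over 13796 genes, with Benjamini-Hochberg adjustment. The fit was tested on simulated data. Differences are HSRA-S minus HSRA-C on the log2 scale. The mitosis genes and all lists, 4 of other cell cycle genes and 14 of cell type markers, were chosen with earlier results of these data known, so lists have counts and medians and no test. Values on every array are given for 11 tested genes: that of smallest p in each of 7 roles, the 4 of smallest and 2 of largest p, Mki67, Ccnb1, Cdk1 and Top2a; Ttk was added after its values were seen. In the 4 lists of other cell cycle genes the 3 genes of smallest p are named. Cd3e and Cd79b were named after their values were seen. Promoters were matched by gene ID for 27 genes and by symbol for the remainder.

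Alternatives were no filter on dim genes, the dimmest 50% left out, the mean over probe sets, an intensity trend, arrays centred on their medians, an offset of 16 before log2, the replicate number as a block, each replicate left out, HSRA-C replicates 3 and 4 left out, a tissue covariate (mean of proximal tubule markers minus mean of inner medulla and collecting duct principal cell markers) and, for promoters, ATTGG on the sense strand only.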

Additional observations from a re-analysis of the deposited data

Results flagged for a closer look

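Among 4 samples of a group, a sample was singled out when its gap to the nearest value took up most of the group's range (Dixon's test at the 95% level, which chance meets in about 1 in 20 groups). HSRA-C replicate 2 stood above the other controls in Ccnb1 (log2 5.65, the next at 4.87), Smc4 (7.13, the next at 6.76), Cdc20 (6.68, the next at 5.98) and Cenpf (5.66, the next at 5.06). HSRA-S replicate 4 stood below the other solitary kidneys in Top2a (6.62, the next at 7.31), Mki67 (7.37, the next at 8.03) and Nusap1 (5.28, the next at 6.05). These are 4 of 31 genes in HSRA-C, or 12.9%, against 4.55% of all genes tested, and 3 of 31 in HSRA-S, or 9.68%, against 5.86%. The genes share their arrays, so these are not independent findings.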

How the results depend on the processing

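Under all alternatives run, 0 mitosis genes passed at an adjusted p under 0.05, and the lowest adjusted p of any was 0.147. Of 512 differences of single mitosis genes, 505 kept their direction. The 7 that turned were all of Aurka or Foxm1: Aurka was at 0.035 without HSRA-C replicates 3 and 4, 0.10 with the tissue covariate, 0.044 without HSRA-S replicate 4 and 0.061 without HSRA-C replicate 4, with a range of -0.12 to 0.061 over single replicates left out; Foxm1 was at -0.041 without HSRA-S replicate 1, -0.029 without HSRA-S replicate 2 and -0.042 without HSRA-C replicate 1, with a range of -0.042 to 0.13. Over all genes, 1 passed with the dimmest 50% left out, 1 with the intensity trend and 1 with the offset of 16. The number of mitosis genes higher at an unadjusted p under 0.05 was 16; it was 9 with the dimmest 50% left out, where 16 genes were tested and 16 were higher, 0 without HSRA-C replicates 3 and 4, and 5 to 29 with single replicates left out. The number higher at any p was 29 to 31 with single replicates left out, and the median difference 0.30 to 0.56, with 0.17 to 0.30 for the other mitosis genes. Genes without overlap were 0 with arrays centred and 1 to 14 with single replicates left out. The 1663 genes of all genes at an unadjusted p under 0.05, in either direction, became 1261 with the dimmest 50% left out. That number was 669 without HSRA-C replicates 3 and 4 and 1010 to 1942 with single replicates left out. With the dimmest 50% left out, the share of all genes that were higher at such a p was not taken. The count of 9 mitosis genes in that setting therefore has no matching share of all genes. The median SD in HSRA-C was 0.23 with the offset, 0.51 without HSRA-C replicates 3 and 4 (2 arrays) and 0.13 to 0.41 with single replicates left out; in HSRA-S it was 0.14 to 0.41. Counting ATTGG on the sense strand only gave 44.8% of the mitosis gene promoters in place of 79.3%. Over all promoters it gave 22.3% in place of 37.5%. Replicate numbers are shared between the groups but are not said to pair animals, so the numbers were not taken as pairs. Deviations of same-numbered samples over all genes correlated at -0.11 to 0.13, which cannot decide whether animals were paired. With the replicate block, 24 mitosis genes were higher at an unadjusted p under 0.05 and 0 at an adjusted p under 0.05. RMA compresses dim values, which limits what can be read from Ttk. The causes of these shifts were not tested.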
